A study of Mus musculus with 12 samples.

Results

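Core cardiac transcription factors are the DNA-binding proteins that switch on the contractile and conduction genes of the heart. The 10 taken here are the zinc-finger factors Gata4 and Gata6, the helix-loop-helix factor Hand2, the homeobox factor Nkx2-5, the T-box factors Tbx5 and Tbx20, and the MADS-box factors Mef2a, Mef2c, Mef2d and Srf. They were found by symbol among the 44450 loci of the deposited tables, and all 10 were present, each on a locus that carries no other gene name. These proteins bind next to one another at shared enhancers and keep on working in the adult heart, where SRF and the MEF2 proteins depend on cofactors to switch between growth, stress and contractile genes. GATA4 and GATA6 overlap in function, as do the MEF2 proteins with one another.

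Total RNA was sequenced from hearts of 11-week-old C57BL/6N mice in 2 groups of 3 libraries. Control mice had both copies of Mrpp3 flanked by loxP sites (Mrpp3loxP/loxP), and knockout mice carried the same floxed gene together with 1 Ckmm allele (+/Ckmm), the name of a transgene in which the promoter of muscle creatine kinase drives Cre. MRPP3 cuts the 5′ ends of mitochondrial tRNAs, and this Cre acts in heart and skeletal muscle cells, so the other cells of the heart should keep the gene. Only knockouts carry Cre, so its effect and that of the lost gene cannot be told apart. Values are FPKM (fragments mapped to a gene, divided by its length and by the size of the library). They are corrected for length, so levels can be set side by side between genes. Differences are log2 fold changes, knockout minus control after adding 0.5 FPKM to each value, so a change at low FPKM comes out too small. They were tested with limma and called at a Benjamini-Hochberg adjusted p under 0.05 over all 12181 loci with at least 1 FPKM in 3 libraries.

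The targeted gene, Prorp (listed as 1110008L16Rik), had 3.49, 2.64 and 3.23 FPKM in the controls and 0.441, 0.701 and 0.555 in the knockouts. Its log2 fold change was -1.77 (standard error 0.17, adjusted p = 0.00063 by limma), in the direction of the labels, although these do not say which exons the loxP sites flank. The files give no read totals, and steps between the lowest values placed the knockout libraries at 2.06 to 2.55 times the depth of control replicate 1, against 1.31 and 1.34 for the other controls. Depth therefore moved with genotype, and its part in the results was not tested. Summed over 7 ventricular markers, controls had 27817 to 31582 FPKM and knockouts 12744, 6268 and 13861, with no marker at 0. Macrophage markers summed to 133 to 146 FPKM in controls and 194 to 212 in knockouts, and 5 of 6 rose, against 16.1% of all loci. The 7 endothelial markers, none of which passed, summed to 306 to 345 and 269.9 to 356 FPKM. Knockout replicate 2 stood apart, with 3512 FPKM of atrial markers (18.01 to 137 in the other 5 libraries) and 21895 FPKM of erythroid markers (622 to 2902). In the controls the sum listed as atrial was mostly Myl1, at 26.4, 38.9 and 27.7 FPKM, so it does not stand for atrial muscle. The atrial markers Myl7, Myl4 and Sln each had at most 4.09 FPKM there.

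Of the 10 factors, Hand2 and Gata6 fell in the knockout hearts, and the other 8 did not pass the test. Hand2 was 3.29-fold lower and Gata6 2.03-fold lower, both with every knockout library below every control, as at 28.7% of all loci (52.3% did not overlap in either direction). None of the 10 rose, either at the adjusted threshold or at an unadjusted limma p under 0.05. Over all loci 16.1% were called higher, 19.5% lower and 35.7% in either direction, so 2 of 10 is not above the background of this comparison. These were 1966 and 2377 loci, and 3229 and 1400 when every library was scaled to one sum, where Gata4 was called higher and only Hand2 lower. The 8 other factors had log2 fold changes between -0.32 and 0.26, all smaller in size than the median absolute change of all loci, 0.37. These are point estimates, and a factor that did not pass may still have changed by more. The value of Tbx5 was 0.01 with a standard error of 0.67. Without knockout replicate 2 Tbx5 was called lower, at -0.86 (limma adjusted p = 0.025). In whole hearts, fewer cells of a type and less RNA per cell cannot be told apart.

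**Figure D1:**
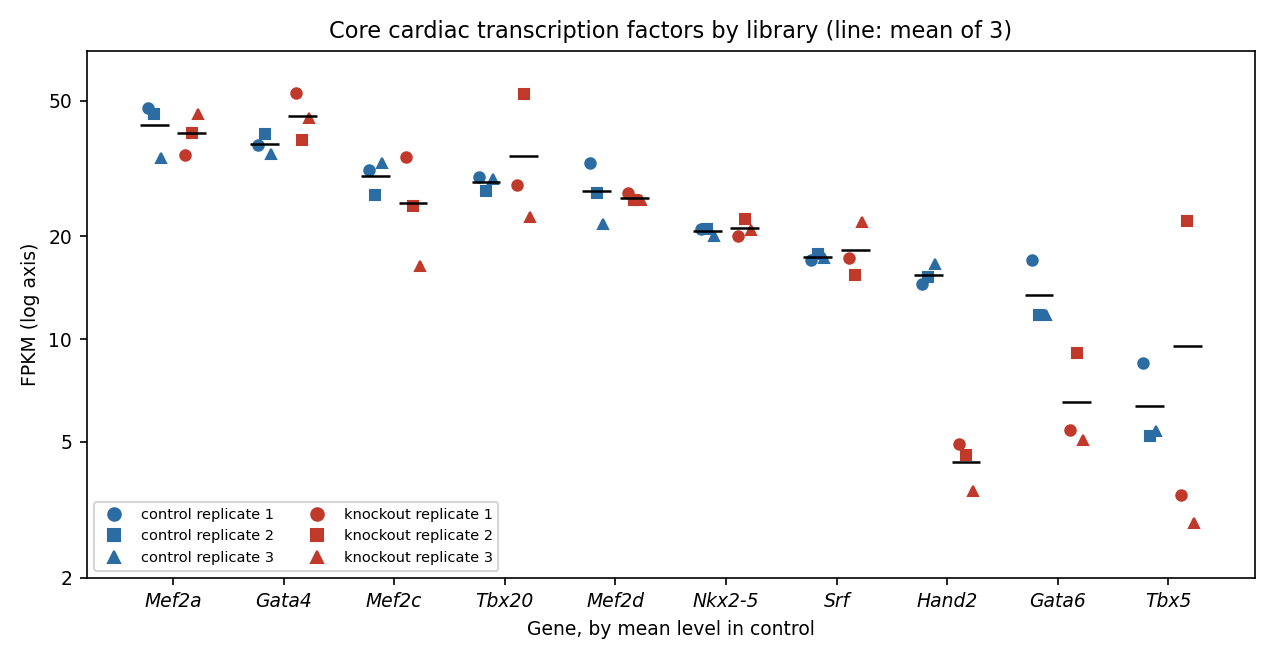
FPKM of each factor (log axis) in the 3 control libraries (blue) and the 3 knockout libraries (red), with symbols for the replicate number and a line at the group mean. The red points of Hand2 and Gata6 all lie below the blue ones, and knockout replicate 2 stands high for Tbx5 (22.2 FPKM) and Tbx20 (52.3 FPKM).

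HAND2 is a helix-loop-helix protein that builds the right ventricle in the embryo and is also made by fibroblasts and sympathetic nerve cells. The gene had 14.5, 15.2 and 16.6 FPKM in the controls and 4.93, 4.57 and 3.60 in the knockouts. The groups were far apart, and the highest knockout library had less than the lowest control. The mean went from 15.4 ± 1.04 to 4.37 ± 0.690 FPKM (SD, n = 3 each), with a log2 fold change of -1.72 (standard error 0.14, adjusted p = 0.00038 by limma) and a 95% interval of -2.05 to -1.39. Of all loci, 6.76% were called lower by at least 2-fold. Its change held under every alternative tried, from -1.81 to -1.52. The 6 fibroblast markers, 3 of which rose, summed to 269 to 334 FPKM in controls and 262 to 348 in knockouts, none at 0. Among all loci 16.1% were called higher. The 4 nerve and Schwann cell markers summed to 2.73 to 3.50 and 1.496 to 3.10 FPKM, with 1 tested and lower. The part of these cells in the fall of Hand2 was not tested. The gene spans 57320983 to 57324517 on chromosome 8 (GRCm38). The noncoding gene Hand2os1 (listed as Gm28063), 123 bases from Hand2 by coordinate, was listed at 0 in all 6 libraries. Why it stood at 0 was not tested, and a listed 0 does not show that the gene is silent. The noncoding Hdnr, 7917 bases beyond Hand2, had 0.397 to 1.00 FPKM in controls and 0.240 to 0.764 in knockouts, too low to be tested.

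The promoter of Hand2, the factor with the largest change, is shown with its GATA motifs. The window (RefSeq, GRCm38.p6, plus strand, chr8:57320733-57321032) covers 250 bases before the start and 50 after it. Capitals mark the motif GATAA, which GATA factors bind, read on either strand.
Hand2: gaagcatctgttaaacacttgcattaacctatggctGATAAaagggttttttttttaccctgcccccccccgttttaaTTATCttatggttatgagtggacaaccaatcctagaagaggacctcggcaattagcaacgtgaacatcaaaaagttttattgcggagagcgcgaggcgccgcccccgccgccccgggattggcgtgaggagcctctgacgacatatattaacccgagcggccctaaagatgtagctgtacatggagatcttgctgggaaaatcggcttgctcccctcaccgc
The motif lies at -214 to -210 and, on the other strand, at -172 to -168, counted from the start of transcription. At least 2 matches were found in 5.27% of all 32851 promoter windows of 300 bases, and at least 1 in 25.4%. A match is a run of letters and does not show that a GATA factor binds there.

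By the shape of its profile over the 6 libraries, Hand2 was most like Camk2b (Pearson r = 0.999), Srsf3 (0.998) and Pknox2 (0.997). These values describe libraries that share a genotype difference and carry no test. Camk2b, a calcium/calmodulin-dependent kinase subunit, went from 2.66 ± 0.190 to 0.677 ± 0.114 FPKM, Srsf3, a splicing factor, from 44.0 ± 0.375 to 25.8 ± 1.21 FPKM, and Pknox2, a homeobox factor, from 3.72 ± 0.234 to 1.47 ± 0.206 FPKM. All 3 fell, by 1.43, 0.76 and 1.104 on the log2 scale (limma adjusted p = 0.00091, 0.0022 and 0.0016).

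Of the GATA pair, Gata6 was called lower and Gata4 was not called. GATA6, a zinc-finger factor made in cardiomyocytes and also in endothelium, epicardium and smooth muscle, had 17.1, 11.7 and 11.8 FPKM in the controls and 5.40, 9.13 and 5.06 in the knockouts. Its knockout values were all below the controls, but the gap between 9.13 FPKM in knockout replicate 2 and 11.7 in a control was small. The log2 fold change was -1.02 (standard error 0.24, adjusted p = 0.016 by limma), with a 95% interval of -1.59 to -0.45. The call was lost without control replicate 1 (-0.85, limma adjusted p = 0.057) or knockout replicate 1 (-0.92, 0.052) and when each library was scaled to one sum (-0.82, 0.060). Without knockout replicate 2 the value was -1.27 (limma adjusted p = 0.0032). The 5 mural cell markers, 2 higher and 2 lower, summed to 271 to 284 FPKM in controls and 130.01 to 194 in knockouts. Calls over all loci were 16.1% higher and 19.5% lower. By group means, Rgs5 (168 to 108 FPKM) and Abcc9 (77.4 to 26.1) were lower. Pdgfrb (15.1 to 20.6 FPKM) and Cspg4 (4.03 to 6.72) were higher, so the sum does not stand for the whole list. The 4 epicardial markers summed to 1.88 to 2.78 FPKM in controls and 1.86 to 18.03 in knockouts, the last in knockout replicate 2. The part of mural and epicardial cells in the fall of Gata6 was not tested. Gata6 spans 11052510 to 11085636 on chromosome 18.

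The noncoding gene Gata6os (listed as 1010001N08Rik), at 11042037 to 11052567 on chromosome 18, overlaps the first 58 bases of Gata6. It fell too. It had 5.76, 3.79 and 5.27 FPKM in the controls and 1.61, 2.11 and 1.72 in the knockouts. Each knockout library was below each control, as at 28.7% of all loci. The log2 fold change was -1.22 (standard error 0.18, adjusted p = 0.0026 by limma), and it held under every alternative tried that tested it (-1.39 to -1.07). It was looked up after the values of Gata6 were seen, and no use of strand is stated for the files, so fragments in the shared bases cannot be assigned.

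GATA4, the zinc-finger factor of cardiomyocytes that drives hypertrophic genes, had 37.0, 40.0 and 35.0 FPKM in the controls and 52.6, 38.5 and 44.4 in the knockouts. Knockout replicates 1 and 3 lay above all controls and knockout replicate 2 among them. Its log2 fold change was 0.26 (standard error 0.15, adjusted p = 0.20 by limma), with a 95% interval of -0.08 to 0.60, which takes in a rise of up to 1.52-fold. It passed as higher with array weights (0.40, limma adjusted p = 0.014) and when libraries were scaled to one sum (0.49, 0.035), a scaling that moved the median of all loci to 0.20. Gata4 made up 68.4, 77.3 and 74.8% of the summed FPKM of Gata4 and Gata6 in the controls and 90.7, 80.8 and 89.8% in the knockouts. This share was higher in 3 of 3 knockouts, with means of 73.5 ± 4.58% and 87.1 ± 5.45% (exact two-sided permutation p = 0.10, the smallest that 3 against 3 allows, or 0.50 adjusted over 5 shares). It restates the fall of Gata6 and does not depend on how a library is scaled.

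**Figure D2:**
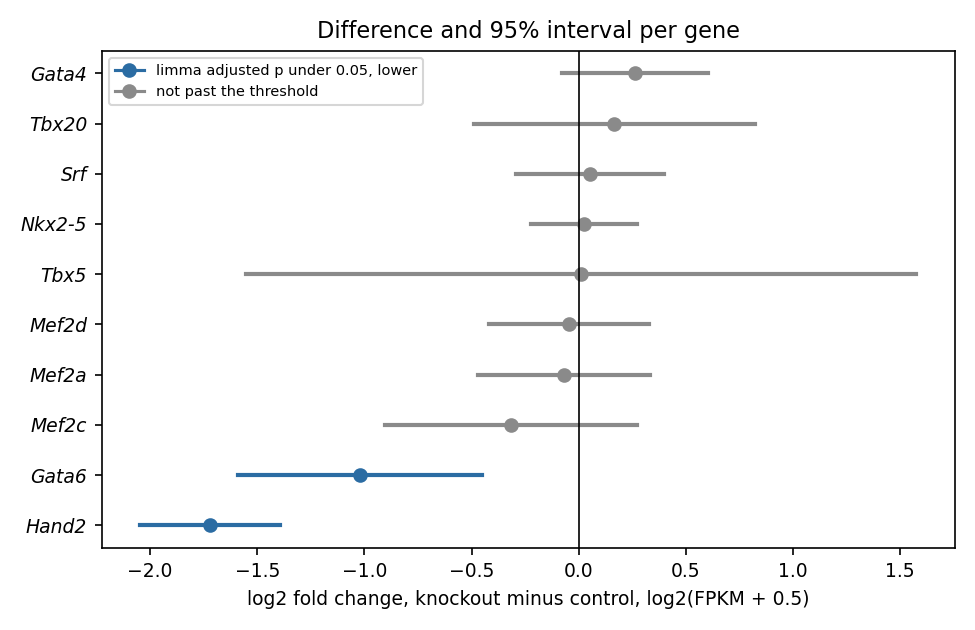
Log2 fold change of each factor (points) with its 95% interval (lines), knockout minus control on the log2(FPKM + 0.5) scale. Only the intervals of Hand2 and Gata6 (blue) lie wholly below 0, and that of Tbx5 runs from -1.55 to 1.57.

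NKX2-5, the homeobox factor of the cardiomyocyte lineage and of the conduction system, had the smallest standard error of the 10. It had 21.1, 21.1 and 20.1 FPKM in the controls and 20.1, 22.4 and 20.9 in the knockouts. The groups overlapped, and the SD within groups was 2.74% of the mean in controls and 5.62% in knockouts. Its log2 fold change was 0.02 (standard error 0.11, adjusted p = 0.88 by limma), with a 95% interval of -0.22 to 0.27, or 0.856 to 1.21 as a fold.

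The T-box factors were set apart by 1 library. TBX5, which patterns the atria and conduction system, had 8.502, 5.20 and 5.39 FPKM in the controls and 3.49, 22.2 and 2.90 in the knockouts. Knockout replicate 2 was the highest of all and the other knockouts the lowest, with controls between. The log2 fold change over all libraries was 0.01 (standard error 0.67, adjusted p = 0.99 by limma), and its interval of -1.55 to 1.57 leaves room for a large change either way. Without knockout replicate 2 Tbx5 was lower, at -0.86 (limma adjusted p = 0.025). TBX20, a T-box factor of adult cardiomyocytes, had 29.9, 27.1 and 29.4 FPKM in the controls and 28.4, 52.3 and 22.8 in the knockouts. Here too knockout replicate 2 stood above the other libraries, which lay between 22.8 and 29.9 FPKM. Its log2 fold change was 0.17 (standard error 0.28, adjusted p = 0.67 by limma), and -0.17 without that library (limma adjusted p = 0.32).

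In knockout replicate 2 Tbx5 was 6.96 times and Tbx20 2.04 times the mean of the other knockouts, while Hand2, Nkx2-5 and the MEF2 genes were within 0.969 to 1.095 times. Gata6 was 1.74 times that mean, and Gata4 and Srf 0.793 and 0.785 times. The atrial light chain Myl7 had 1.90, 0 and 0.313 FPKM in the controls and 43.5, 911 and 0.0961 in the knockouts. Myl4, another atrial light chain, had 4.09, 1.94 and 1.33 FPKM in the controls and 66.1, 2290.5 and 3.35 in the knockouts. These atrial markers were highest in the library with the highest Tbx5, and next in knockout replicate 1, where Tbx5 was not raised. The ventricular light chain Myl2 went the other way, at 10657, 11877 and 13756 FPKM in the controls and 4897, 662 and 4683 in the knockouts. Irx3, Irx4 and Irx5, homeobox factors of which Irx4 marks the ventricle, were 0.255, 0.243 and 0.224 times the other knockouts in this library, and Hey1, a Notch-driven repressor of the atria, 2.34 times. The epicardial gene Upk3b had 6.86 FPKM there and at most 0.216 elsewhere. The part of these markers in the values of Tbx5 and Tbx20 was not tested.

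**Figure D3:**
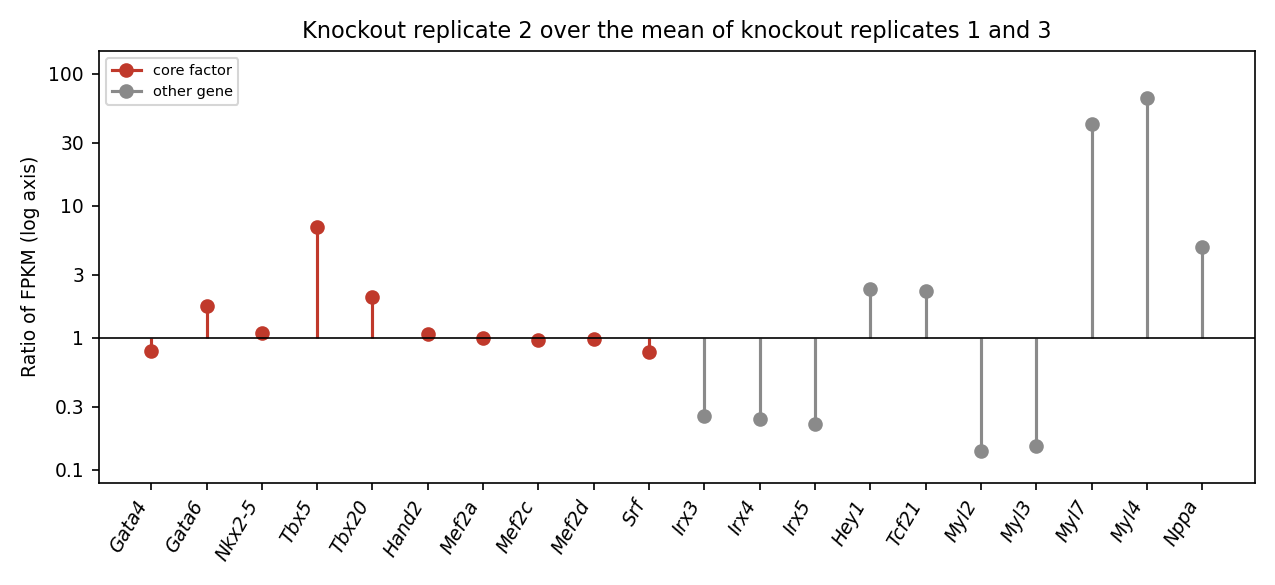
FPKM of knockout replicate 2 divided by the mean of knockout replicates 1 and 3 (log axis), for the 10 factors (red) and for other genes (grey). Tbx5 (6.96) and Tbx20 (2.04) lie above 1 with the atrial Myl7 (41.8), and the ventricular Irx4 (0.243) and Myl2 (0.138) lie below.

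The MEF2 factors, which bind AT-rich sites in muscle gene promoters and respond to calcium signals, did not pass the test. Mef2a, with the highest control mean of the 10, had 47.5, 45.6 and 34.0 FPKM in the controls and 34.7, 40.3 and 45.6 in the knockouts. Mef2d had 32.9, 26.8 and 21.8 FPKM in the controls and 26.7, 25.5 and 25.6 in the knockouts. Both overlapped broadly between groups, and Mef2d had an SD of 20.5% of its mean in controls but 2.65% in knockouts. Their log2 fold changes were -0.07 (standard error 0.17, adjusted p = 0.79 by limma) and -0.04 (standard error 0.16, adjusted p = 0.85 by limma), with intervals of -0.47 to 0.34 and -0.42 to 0.33, and both were above 0 when libraries were scaled to one sum. Mef2c had 31.3, 26.5 and 32.8 FPKM in the controls and 34.3, 24.6 and 16.4 in the knockouts. Its knockout values ran from the highest to the lowest of the 6 libraries, and the log2 fold change was -0.32 (standard error 0.25, adjusted p = 0.36 by limma), with an interval of -0.90 to 0.27.

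Mef2b was measured on a locus shared with 2310045N01Rik, so its value cannot be read as MEF2B. That joint locus had 8.61, 8.35 and 10.7 FPKM in the controls and 12.9, 16.8 and 17.9 in the knockouts and rose (log2 fold change 0.75 with standard error 0.16, adjusted p = 0.011 by limma), a call lost without control replicate 2. Mef2a made up 38.8 ± 4.19% of the summed Mef2a, Mef2b, Mef2c and Mef2d values in controls and 37.6 ± 5.63% in knockouts, Mef2c 27.9 ± 4.48% and 23.3 ± 7.996%, and Mef2d 24.8 ± 2.69% and 24.2 ± 0.399%. All 3 shares overlapped between the groups (exact permutation p = 0.80, 0.40 and 0.70). The joint Mef2b locus is part of these sums. Leaving it out, a choice made after seeing the data, turned the differences of Mef2a and Mef2d from -1.15 and -0.53 to 1.96 and 1.41 percentage points. Tbx5 took 17.9 ± 3.68% of the summed Tbx5 and Tbx20 values in controls and 17.4 ± 10.8% in knockouts, where the libraries had 11.0, 29.8 and 11.3% (exact permutation p = 1).

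**Figure D4:**
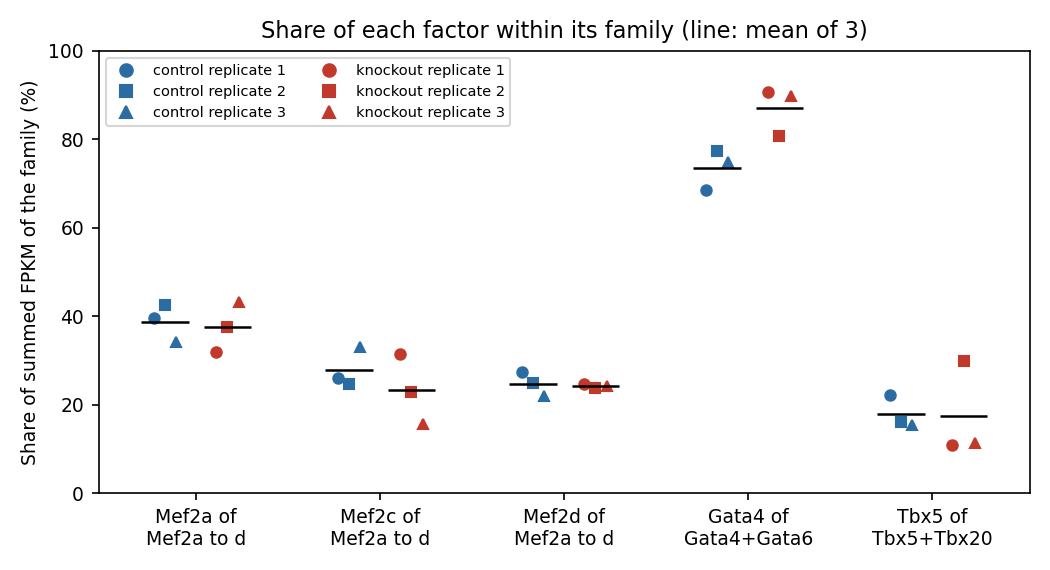
Share of the family's summed FPKM taken by each factor (%) in controls (blue) and knockouts (red), with a line at the mean of 3 libraries. The knockout points lie above all control points only for Gata4 within Gata4 and Gata6.

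SRF, the MADS-box factor of actin and immediate early genes, had 17.1, 17.8 and 17.3 FPKM in the controls and 17.2, 15.4 and 22.1 in the knockouts. The SD of the controls was 2.01% of their mean, and the knockouts lay below, among and above them. The log2 fold change was 0.05 (standard error 0.15, adjusted p = 0.80 by limma), with an interval of -0.29 to 0.40. Its promoter and that of Mef2a are shown because each window holds a motif for the protein's own family. The Srf window (RefSeq, GRCm38.p6, minus strand, chr17:46556113-46556412) has the CArG box, which SRF binds, in capitals. The Mef2a window (minus strand, chr7:67372809-67373108) has the MEF2 box in capitals.
Srf: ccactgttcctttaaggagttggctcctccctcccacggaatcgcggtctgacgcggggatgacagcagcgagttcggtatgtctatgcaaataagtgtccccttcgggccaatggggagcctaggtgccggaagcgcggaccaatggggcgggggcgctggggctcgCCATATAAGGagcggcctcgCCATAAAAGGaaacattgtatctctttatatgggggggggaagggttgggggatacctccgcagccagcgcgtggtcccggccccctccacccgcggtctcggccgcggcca
Mef2a: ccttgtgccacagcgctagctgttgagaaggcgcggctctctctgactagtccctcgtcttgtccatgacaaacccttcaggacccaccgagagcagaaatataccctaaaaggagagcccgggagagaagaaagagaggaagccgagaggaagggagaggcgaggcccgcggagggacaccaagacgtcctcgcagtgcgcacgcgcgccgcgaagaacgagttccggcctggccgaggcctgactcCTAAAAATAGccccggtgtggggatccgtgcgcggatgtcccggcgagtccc
The CArG boxes of Srf read CCATATAAGG at -82 to -73 and CCATAAAAGG at -62 to -53. A CArG box was found in 1.63% of all windows, and 2 or more in 0.0183%. The MEF2 box of Mef2a, CTAAAAATAG, lies across the start at -2 to 8, and 0.557% of all windows hold one. RefSeq windows of 7 of the 10 factors were used, 9 windows in all, and none of Gata4, Gata6 or Tbx5. The T-box motif GGTGTGA, found in 3.98% of all windows, was in none of these 9 windows, and the only other match was of GATAA, at 2 places in 1 window of Mef2c. Both strands were searched, and no motif overlapped another.

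By level, controls ran from Mef2a (42.4 ± 7.33 FPKM), Gata4 (37.3 ± 2.51), Mef2c (30.2 ± 3.30), Tbx20 (28.8 ± 1.49) and Mef2d (27.1 ± 5.55) through Nkx2-5 (20.8 ± 0.568), Srf (17.4 ± 0.349) and Hand2 (15.4 ± 1.04) to Gata6 (13.5 ± 3.06) and Tbx5 (6.36 ± 1.85). Of these neighbours, the ranges of Mef2a and Gata4, Mef2c and Tbx20, Tbx20 and Mef2d, and Hand2 and Gata6 overlapped, so their order is not settled by 3 libraries. The median locus tested had 7.04 FPKM, and 9 of the 10 factors lay above it. By knockout means Gata4 was first (45.1 ± 7.11 FPKM) and Hand2 last (4.37 ± 0.690), below Gata6 (6.53 ± 2.26) in every library. All other neighbours in the knockout order overlapped, and the order differed between libraries. Gata4 was first in knockout replicate 1, Tbx20 in 2 and Mef2a in 3. Tbx5 was last in knockout replicates 1 and 3, with Hand2 just above it, and Hand2 was last only in knockout replicate 2, where Tbx5 was high.

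Other transcription factors of the heart moved in both directions, as did all loci. Of 25 listed, 21 were tested, 3 rose, 4 fell and 14 did not pass, and the rest were too low to be tested. Of those tested, 14.3% were called higher and 19.0% lower, near the 16.1% and 19.5% over all loci. The median log2 fold change of the list was -0.34, that of the 10 factors -0.02 and that of all loci -0.02. With libraries scaled to one sum these medians were -0.13, 0.199 and 0.197, and without control replicate 2 that of the list was -0.18. Hopx, a homeodomain protein that binds no DNA and restrains SRF, fell the most, from 128 ± 14.3 to 25.7 ± 5.76 FPKM (log2 fold change -2.31 with standard error 0.19, adjusted p = 0.00038 by limma). It had 114, 127 and 143 FPKM in the controls and 25.9, 31.4 and 19.9 in the knockouts. Every knockout was below every control, as at 28.7% of all loci. Prdm16, a zinc-finger factor of the ventricular wall, fell from 9.12 ± 0.696 to 4.62 ± 1.14 FPKM (log2 fold change -0.93 with standard error 0.17, adjusted p = 0.0064 by limma). Irx4 fell from 11.0 ± 0.458 to 3.97 ± 2.72 FPKM (log2 fold change -1.58 with standard error 0.44, adjusted p = 0.029 by limma), which did not pass without any one control (limma adjusted p = 0.075 to 0.084) or knockout replicate 3 (0.052). It stood at -1.03 without knockout replicate 2, where it was lowest. Tcf21, a factor of fibroblasts and epicardium, rose from 2.23 ± 0.360 to 5.02 ± 2.58 FPKM (log2 fold change 0.93 with standard error 0.30, adjusted p = 0.045 by limma), with 7.999 FPKM in knockout replicate 2. Without that library its change was 0.57 (limma adjusted p = 0.035), and it did not pass without any one control (limma adjusted p = 0.077 to 0.13). The remaining calls were Prrx1, a mesenchymal homeobox factor, which was lower, and Tbx2, a T-box repressor, and the joint Mef2b locus, which were higher. The call of Prrx1 was lost without any one control, and those of Tbx2 and the joint Mef2b locus without control replicate 2.

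Partners of the factors fell more often than they rose. Of 29 cofactors and upstream regulators tested, 2 rose, 11 fell and 16 did not pass, with a median log2 fold change of -0.30. Those called higher and lower were 6.9% and 37.9%, against 16.1% and 19.5% of all loci. With libraries scaled to one sum 7 fell, with a median of -0.081. Without control replicates 1, 2 and 3 the number that fell was 8, 8 and 7. Fhl2, Hdac4, Hdac9 and Mapk14 kept their calls without any one library. Zfpm1 was listed as well, but no locus was found under that symbol. Among the SRF partners, Fhl2, a LIM protein that binds SRF, had 826, 1097 and 1062 FPKM in the controls and 305, 80.2 and 262 in the knockouts and fell by 2.41 on the log2 scale (SE 0.48, limma adjusted p = 0.0081), or by 1.80 without knockout replicate 2. Myocd, the coactivator that makes SRF switch on muscle genes, had 22.4, 23.4 and 25.6 FPKM in the controls and 10.6, 12.8 and 14.3 in the knockouts and fell by 0.90 (SE 0.14, limma adjusted p = 0.0032). The other SRF coactivators Mkl1 and Mkl2 and the ternary complex factors Elk1, Elk3 and Elk4 did not pass, with log2 fold changes of -0.11 to 0.07.

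The class IIa histone deacetylases, which bind MEF2 proteins and repress their targets, were lower except for Hdac7. Hdac4 had 15.8, 14.4 and 17.4 FPKM in the controls and 6.55, 6.66 and 6.30 in the knockouts (log2 fold change -1.22 with standard error 0.11, adjusted p = 0.00053 by limma). Hdac9 went from 7.72 ± 0.763 to 2.98 ± 0.666 FPKM and Hdac5 (listed with Mir8101) from 31.1 ± 2.24 to 20.6 ± 2.96 FPKM, by 1.25 and 0.59 lower on the log2 scale (limma adjusted p = 0.0017 and 0.015). Hdac7 stood at 7.46 ± 0.808 and 7.46 ± 1.87 FPKM (log2 fold change -0.02, limma adjusted p = 0.94). Of 10 enzymes of the list taken as upstream of MEF2, a grouping made after the values were seen, 5 fell. Over all loci 19.5% were called lower. Mapk14, the p38 alpha kinase, went from 25.8 ± 1.198 to 11.7 ± 2.80 FPKM (log2 fold change -1.14 with standard error 0.18, adjusted p = 0.0036 by limma). Camk2g and Prkd2, kinases of class IIa deacetylases, and Ppp3cb and Ppp3r1 of the phosphatase calcineurin fell by 0.85, 0.57, 0.70 and 0.41 on the log2 scale, and the locus of Ppp3r1 also carries Wdr92. Prkd1, Prkd3, Camk2d, Ppp3ca and Mapk7 did not pass, with log2 fold changes of -0.62 to 0.04. Zfpm2, the FOG-2 cofactor of GATA4, went from 4.98 ± 0.235 to 3.66 ± 0.194 FPKM (log2 fold change -0.40 with standard error 0.11, adjusted p = 0.030 by limma). The 2 that rose belong to a chromatin remodelling complex. Smarcd3, its heart subunit, went from 22.0 ± 2.71 to 40.4 ± 14.7 FPKM (limma adjusted p = 0.039), and the locus of its ATPase Smarca4, which also carries Gm27373, from 16.4 ± 1.95 to 21.7 ± 1.64 FPKM (limma adjusted p = 0.050, below the threshold before rounding). Neither rise held without any one control or without knockout replicate 3.

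Target genes of the factors moved in both directions. Of 21 targets of GATA4, NKX2-5 and T-box factors, 3 rose, 10 fell and 8 did not pass, with a median log2 fold change of -0.63. The shares called over all loci were 16.1% higher and 19.5% lower. Nppa, which encodes atrial natriuretic peptide, had 56.4, 40.6 and 119.5 FPKM in the controls and 1948, 10527 and 2327 in the knockouts (log2 fold change 5.79 with standard error 0.68, adjusted p = 0.0011 by limma). Nppb, the B-type peptide, had 25.3, 113 and 165 FPKM in the controls and 750.3, 404 and 1133 in the knockouts (log2 fold change 3.16 with standard error 0.69, adjusted p = 0.012 by limma). All knockout libraries were above all controls for both, as at 23.6% of all loci, and Nppa was highest in knockout replicate 2, the library with atrial light chains. Without that library the log2 fold changes were 5.02 and 3.55, and Nppb was at 2.35 without control replicate 1. The third that rose was Id2, a call lost without each control in turn and with no filter on low values. Pln, the brake on the calcium pump, fell from 2309 ± 98.6 to 362 ± 171 FPKM and Ryr2, the calcium release channel, from 269 ± 24.4 to 77.6 ± 11.6 FPKM (log2 fold changes -2.81 and -1.79, limma adjusted p = 0.0022 and 0.00050). Myh6, Tnnt2, Actc1 and Tnni3 (listed with Dnaaf3) of the sarcomere also fell, as did Atp2a2, Cacna1c, Chrm2 and Gja1, by 0.67 to 1.58 on the log2 scale. Of the 7 ventricular markers 5 fell, and Myh6, Tnnt2, Tnni3 and Ryr2 are in both lists. The part of ventricular muscle in these target counts was not tested.

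SRF targets rose more often than they fell, with 9 higher, 2 lower and 11 not past the test of 22 tested, and a median log2 fold change of 0.25. Calls over all loci were 16.1% higher and 19.5% lower. The median was 0.148 without knockout replicate 2, 0.51 without knockout replicate 3 and 0.48 with libraries scaled to one sum. Ankrd1, a stretch-responsive cofactor, had 156, 305 and 418 FPKM in the controls and 1961, 1367 and 2022 in the knockouts (log2 fold change 2.69 with standard error 0.37, adjusted p = 0.0021 by limma). Ctgf, a secreted matrix protein, had 22.2, 11.1 and 11.9 FPKM in the controls and 66.7, 114 and 111 in the knockouts (log2 fold change 2.68 with standard error 0.31, adjusted p = 0.0010 by limma). Knockouts were above controls in every library for both, as at 23.6% of all loci. The immediate early genes Egr1 and Fos went from 1.15 ± 0.362 to 10.9 ± 8.08 FPKM and from 1.78 ± 0.250 to 10.8 ± 8.17 FPKM (log2 fold changes 2.42 and 2.02, limma adjusted p = 0.025 and 0.021). Their knockout libraries differed widely, at 12.4, 18.2 and 2.21 FPKM for Egr1, and both calls were lost without any one control or knockout replicate 1 (limma adjusted p = 0.056 to 0.083), as was that of Egr1 without knockout replicate 2 (0.051). Without knockout replicate 3 Egr1 was at 3.26 and Fos at 2.63. Junb, Cyr61, Zyx, Tln1 and the locus of Actg1 also rose. The 2 that fell were the sarcomere genes Tpm1 and Lmod2, and neither call held without any one control, without knockout replicate 1 or with libraries scaled to one sum. The smooth muscle genes Acta2, Tagln, Cnn1 and Myl9 did not pass. Acta2 had 77.7, 69.996 and 48.6 FPKM in the controls and 55.3, 62.4 and 73.2 in the knockouts, overlapping between groups.

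MEF2 targets were lower, with 11 of 18 called and a median log2 fold change of -0.69. None rose at the adjusted threshold, and 1, Xirp2, was higher at an unadjusted limma p under 0.05. Xirp2, an actin-binding protein of the intercalated disc, had 92.9, 116 and 128 FPKM in the controls and 494, 109 and 429 in the knockouts, with knockout replicate 2 among the controls. Mb, which encodes myoglobin, had 6067, 6739.8 and 6926 FPKM in the controls and 2338, 854 and 2529 in the knockouts (log2 fold change -1.94 with standard error 0.45, adjusted p = 0.014 by limma). Ckm, the muscle creatine kinase, went from 1244 ± 125 to 491 ± 191 FPKM, Slc2a4, the insulin-responsive glucose carrier, from 158 ± 6.64 to 67.7 ± 22.3 FPKM, and Ppargc1a, the coactivator of mitochondrial biogenesis, from 48.6 ± 17.8 to 17.8 ± 1.66 FPKM (log2 fold changes -1.43, -1.27 and -1.37, limma adjusted p = 0.015, 0.0064 and 0.0048). All knockout libraries were below all controls for these 4 genes, as at 28.7% of all loci. The count fell to 5 when libraries were scaled to one sum, and to 5, 3 and 3 without control replicates 1, 2 and 3, and the calls of Mb and Ckm were lost without control replicate 2 (limma adjusted p = 0.053 and 0.055) or 3 (0.050, above the threshold before rounding, and 0.055). With no filter on low values the call of Mb was lost as well (0.11). Counts of lists are to be read beside the 16.1% of all loci called higher and 19.5% called lower, and none was compared with other lists by a test.

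**Figure D5:**
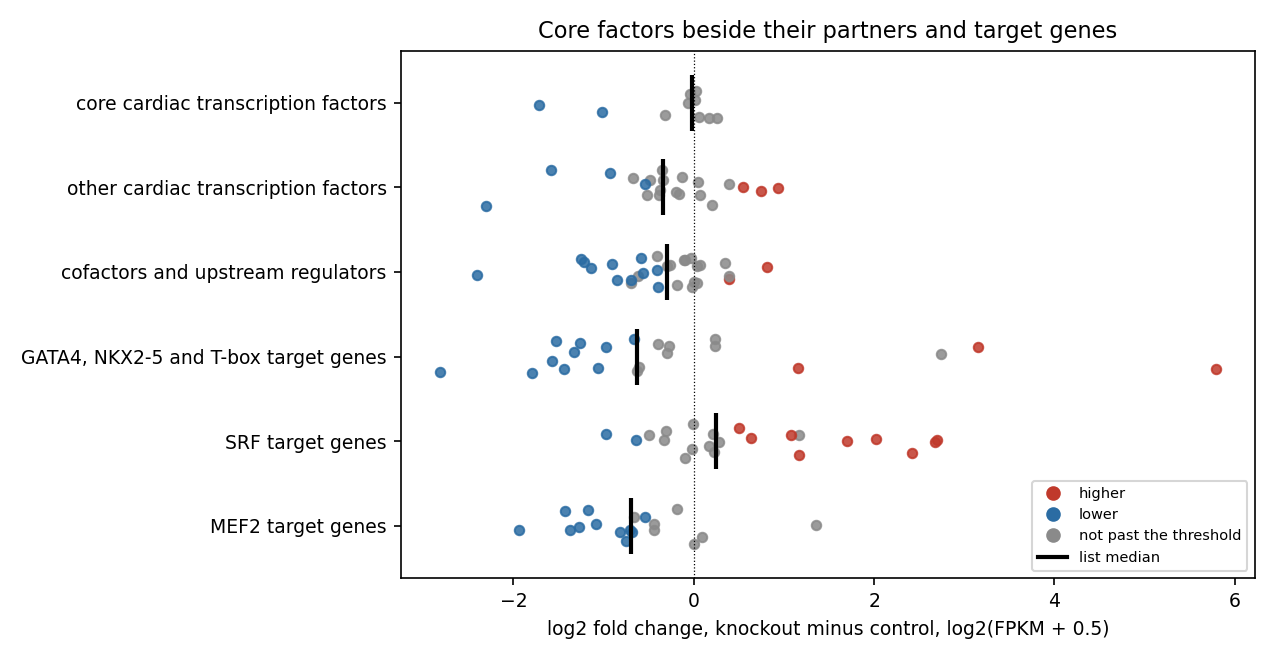
Log2 fold change of each tested gene (points, knockout minus control on the log2(FPKM + 0.5) scale) in the 10 factors and 5 lists of partners and targets, with the list median as a black line. Most of the 10 factors gather near 0 (median -0.02), while MEF2 targets lie to the left (median -0.69).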

How the data were processed

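Heart total RNA was measured by RNA-seq in 3 control and 3 knockout libraries after ribosomal RNA removal, per the labels' protocols. The series' 6 libraries of mitochondrial RNA ends were not analysed here. The authors deposited FPKM values for 44450 loci per library. The submitters' processing notes name the aligners HISAT 0.1.6 and HISAT2 2.0.1, the assemblers StringTie 1.1.0 and Cufflinks 2.2.1, Cuffdiff, and the builds GRCm38 and mm10. What each tool did, the annotation and whether strand was used: not given in the sources used here. Where assembled transcripts overlap, a locus carries several names, and its value belongs to all of them.

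A count model needs counts and was not used. The 12181 loci that reached 1 FPKM in 3 or more libraries were tested on log2(FPKM + 0.5) with limma 3.58.1 (R 4.3.3, variance trend, no covariate), with Benjamini-Hochberg adjustment over all of them and a threshold of 0.05. The procedure was tested on simulated data. Family shares were compared by exact two-sided permutation over libraries. Gene positions, for all 10 factors, and promoter windows, used for 7 of the 10, come from RefSeq (GRCm38.p6). The labels number the replicates and do not state that each is a separate animal, and the p-values cover only the spread from library to library, which may be technical.

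The named genes are the 10 factors, Prorp, up to 4 called members of each of 5 lists with the largest changes, and the 3 protein-coding loci most like Hand2. Others named were chosen after their values were seen. The factors and lists were chosen with earlier results of these data known. Alternatives changed the pseudocount, filter, scaling, variance trend and library weights, added a replicate block, or left out 1 library.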

Additional observations from a re-analysis of the deposited data

How the results depend on the processing

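Hand2 kept its direction and its call under all 17 alternatives (log2 fold change -1.81 to -1.52, limma adjusted p at most 0.0034). The cause of the changes that follow was not tested. Scaling to one sum gave 3229 loci higher and 1400 lower, 1 core factor higher (Gata4) and 1 lower, 7 cofactors lower, 0 SRF targets lower, 1 MEF2 target higher and 5 lower, with Mef2a at 0.16 and Mef2d at 0.18. Leaving out loci encoded by mitochondrial DNA before that scaling gave 3378 and 1282 loci, 1 core factor higher and 1 lower (Gata6 at -0.79, adjusted p = 0.068), 7 cofactors lower, 0 SRF targets lower, 1 MEF2 target higher and 5 lower, with Mef2a at 0.19 and Mef2d at 0.22. The median of all loci moved to 0.20 and 0.23. Array weights gave 1 core factor higher (Gata4), 9 other heart factors lower, 4 SRF targets lower and 1 MEF2 target higher, with Nkx2-5 at -0.035, Tbx5 at -0.51 and Mef2c at 0.11. Quantile normalization gave 1 SRF target lower and 1 MEF2 target higher. A filter of 5 FPKM left 1 other heart factor higher. A pseudocount of 0.1 left 1 cofactor higher and put Tbx5 at -0.018, and dropping the variance trend left 1 cofactor higher. With no filter, 0 cofactors were higher, 6 targets of GATA4, NKX2-5 and T-box factors lower, 0 SRF targets lower and 4 MEF2 targets lower, and the calls of Irx4, Tcf21, Egr1, Fos and Mb were lost (adjusted p = 0.055 to 0.11). Leaving out the joint Mef2b locus, an alternative chosen after seeing the data, put the share differences of Mef2a and Mef2d at 1.96 and 1.41 percentage points.

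Same-numbered control and knockout libraries did not deviate together (r = -0.083, -0.064 and -0.006), so the numbers were not taken as pairs. With the replicate block, 1536 loci were higher and 1807 lower, 1 other heart factor and 1 cofactor were higher, 0 SRF targets and 5 MEF2 targets were lower, and Gata6 had adjusted p = 0.032.

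Leaving out 1 library at a time gave 1212 to 2153 loci higher and 1409 to 2389 lower. Core factors called lower numbered 1 to 3, other heart factors 0 to 3 higher and 2 to 4 lower, cofactors 0 to 2 higher and 7 to 12 lower, SRF targets 0 to 3 lower, and MEF2 targets 0 to 1 higher and 3 to 11 lower. The log2 fold change ran from -0.018 to 0.059 for Nkx2-5, -0.86 to 0.51 for Tbx5, -0.17 to 0.42 for Tbx20, -0.22 to 0.033 for Mef2a, -0.57 to -0.049 for Mef2c, 0.15 to 0.37 for Gata4, -0.19 to 0.10 for Mef2d and -0.088 to 0.16 for Srf. The share differences ran from -3.97 to 1.66 percentage points for Mef2a, -8.67 to -0.68 for Mef2c, -1.94 to 0.75 for Mef2d and -6.79 to 2.66 for Tbx5. Over all alternatives, list medians ran from -0.14 to 0.23 for the core factors, -0.44 to -0.10 for other heart factors, -0.37 to -0.049 for cofactors, -0.76 to -0.39 for targets of GATA4, NKX2-5 and T-box factors, 0.15 to 0.51 for SRF targets and -0.82 to -0.43 for MEF2 targets. Read totals are not known, so no counting interval can be given for low values.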

Other observations

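Genes within 30 kb of the factors were looked up after the values had been seen. Lysmd4, which lies 2694 bases from Mef2a, had 4.93, 5.51 and 5.74 FPKM in the controls and 2.53, 1.86 and 2.64 in the knockouts, so that it fell by 1.06 on the log2 scale (standard error 0.15, adjusted p = 0.0024 by limma), while Mef2a itself overlapped between the groups. Fdft1, the squalene synthase of cholesterol synthesis, lies 17226 bases from Gata4 and went from 8.53 ± 0.535 to 3.65 ± 0.745 FPKM (log2 fold change -1.14 with standard error 0.16, adjusted p = 0.0022 by limma), while Gata4 did not pass. Cul9, 449 bases from Srf, and Ptk7, 6183 bases from it, did not pass (log2 fold changes -0.27 and 0.77, limma adjusted p = 0.22 and 0.12).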
